A study of Mus musculus with 32 samples.

Results

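Nlrp3, which encodes the sensor protein of the NLRP3 inflammasome, was described in mouse macrophages and dendritic cells (DCs) that were differentiated with IL-4. The gene was found by its RefSeq transcript, NM_145827.2, and 1 probe of the 33012 on the array matched it. Just 325 probes could be given a gene name, so whether an unnamed probe also measures Nlrp3 is not known. Total RNA was hybridized to 32 single-color Applied Biosystems chemiluminescence arrays. Nlrp3 was selected on its log2 signal and signal-to-noise ratio (S/N) in the 8 groups, so its levels and differences are given here as a description, with no test. The study asked how PPARγ, a nuclear receptor activated by lipids, and IL-4 act together in these cells.

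Bone marrow came from 8 C57Bl/6 mice, for which the labels give no age. Mice 1 to 4 were PPARg +/-LysCre and keep 1 intact PPARg allele. Mice 5 to 8 were PPARg fl/-LysCre, which have, beside the null allele, a loxP-flanked allele that Cre removes. All 8 groups carry the LysCre transgene and 1 null PPARg allele, so no wild-type mouse is among them. Cre is driven by the lysozyme promoter, which is active in myeloid cells and not in every bone marrow cell. Each mouse gave macrophages, grown in 20 ng/ml M-CSF and 20 ng/ml IL-4, and immature DCs (iDCs), grown in GM-CSF and IL-4 at 20 ng/ml each. Each culture received either vehicle, a mixture of DMSO and ethanol, or 1 μM Rosiglitazone (RSG), an agonist of PPARγ, over 9 days. Each group held the arrays of 4 mice, and the spread between arrays of a group is the spread between mice. None of the 16 macrophage markers, 20 DC markers, 17 IL-4 markers or 32 PPARγ targets looked for had a named probe, so the labels of cell type, treatment and genotype were not checked against them.

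NLRP3 is a cytosolic receptor of the innate immune system. When it is activated by signals such as potassium efflux, crystals or bacterial toxins, it assembles with the adaptor ASC and pro-caspase-1, and active caspase-1 then cleaves pro-interleukin-1β, pro-interleukin-18 and gasdermin D. In macrophages and DCs the amount of NLRP3 is itself regulated, because ligands of Toll-like receptors raise its transcription through NF-κB in a step called priming. The arrays measured RNA of cells that were given no priming or activating agent beyond the cytokines and RSG.

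The promoter is shown because the cells were exposed to IL-4, which acts through STAT6, and to an agonist of PPARγ. RefSeq has 2 start sites for Nlrp3 on the plus strand of chromosome 11 (GRCm38.p6), 1117 bases apart. The 250 bases before the upstream start, chr11:59541319-59541568, are printed 5′ to 3′ on the plus strand with a match to the NF-κB-like pattern in capitals. Of the 250 bases before the downstream start, a stretch of 30 bases, chr11:59542556-59542585, is printed with matches to the PU.1 and STAT6 patterns in capitals. This window lies after the upstream start, and whether it is transcribed from there was not settled.

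Nlrp3 upstream start: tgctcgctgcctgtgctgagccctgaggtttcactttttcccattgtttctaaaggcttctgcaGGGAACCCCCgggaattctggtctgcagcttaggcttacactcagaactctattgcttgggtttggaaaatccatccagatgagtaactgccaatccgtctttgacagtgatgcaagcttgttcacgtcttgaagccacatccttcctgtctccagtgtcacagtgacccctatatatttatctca

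Nlrp3 downstream start: cTTCCTCcTTCCTTTGAAaataaaagcaag

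In all, 7 patterns were searched on both strands of these windows, and for each the share of 32851 RefSeq promoter windows of the same 250 bases that hold it was counted. The STAT6 pattern TTCNNNNGAA matched 1 time, 113 to 122 bases before the downstream start, and 5.85% of all promoters hold it. The PU.1 pattern GAGGAA matched 3 times before the downstream start and is in 23.3% of all promoters. The NF-κB-like pattern GGGNNNNNCC matched before the upstream start and is in 45.8% of them, so a match to it is common. DR1, which is AGGTCA repeated directly after a spacer of 1 base and to which PPARγ binds with RXR (0.0335% of promoters), its unit AGGTCA (14.0%), the STAT5 pattern TTCNNNGAA (7.02%) and the AP-1 pattern TGANTCA (6.75%) had no match in either window, which says only that these letters are not there. A match to GAGGAA and that to TTCNNNNGAA lie 1 base apart, without overlap, and no site was tested for binding.

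Nlrp3 was a dim probe that was measured in every iDC array and in few macrophage arrays. Detection needed an S/N of 3 or more, where S/N is the signal divided by its standard deviation on the array. Nlrp3 was detected on 16 of 16 iDC arrays and on 5 of 16 macrophage arrays. The threshold was also passed by 3.67% to 11.7% of the 436 negative control spots of an array. Of the 16620 probes tested on these arrays, 96 (0.578%) were detected on every iDC array and on at most 5 macrophage arrays, and 73 (0.439%) showed the reverse. The linear Nlrp3 signal ran from 376.17 to 1092.65 in iDCs and from 34.31 to 657.46 in macrophages. In iDCs it was brighter than 48.9% to 63.4% of all probes on the array, and in macrophages brighter than 0.2% to 61.0%. Nlrp3 was brighter than 91.5% to 97.0% of the negative controls in iDCs and than 56.9% to 95.4% of them in macrophages, and the detected macrophage arrays began at 79.1%, in mouse 4 with RSG.

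**Figure D1:**
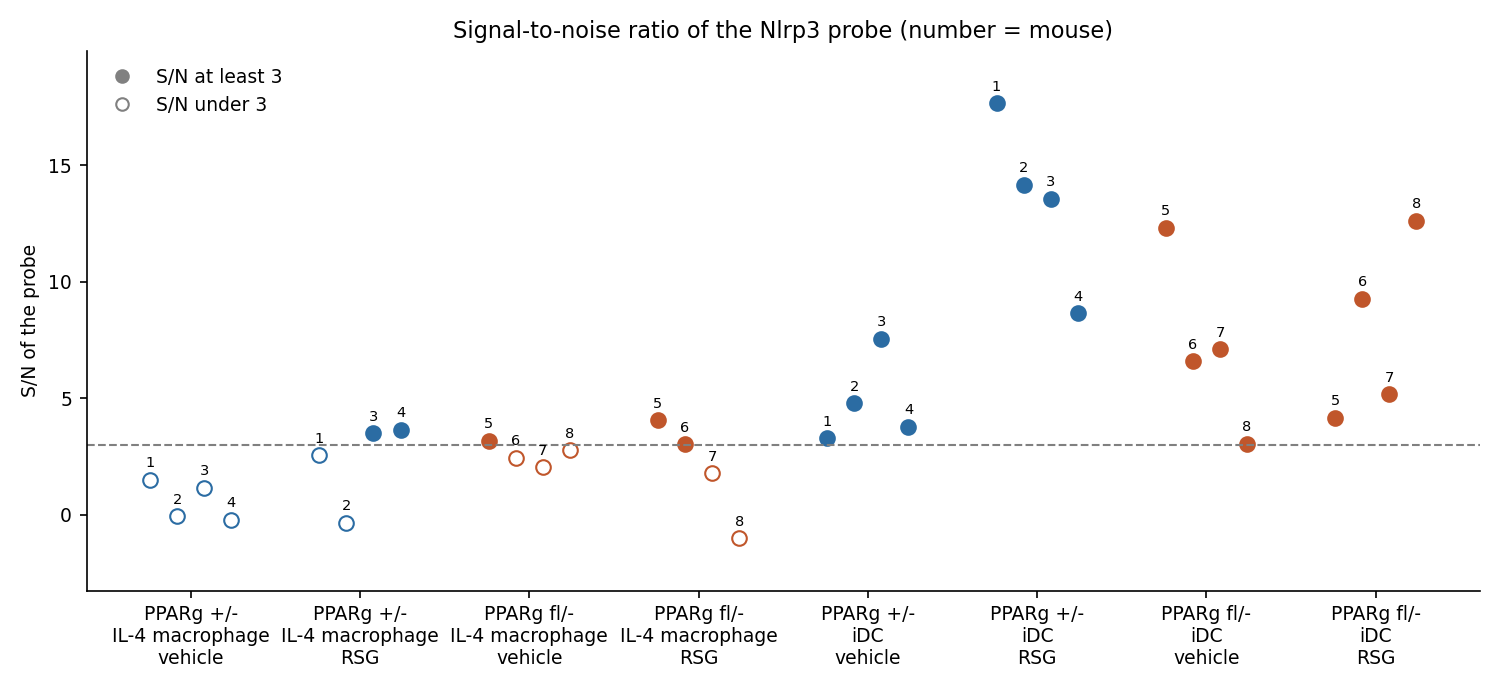
S/N of the Nlrp3 probe on each of the 32 arrays by group, with the mouse number above each point and a dashed line at 3. All 16 iDC arrays lie above the line, and 5 of 16 macrophage arrays do.

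In PPARg +/-LysCre macrophages with vehicle, no array reached the threshold, and the S/N of mice 1 to 4 was 1.49, -0.07, 1.16 and -0.22. The RSG arrays gave 2.54, -0.34, 3.49 and 3.64, so that mice 3 and 4 were detected. In PPARg fl/-LysCre macrophages the S/N of mice 5 to 8 was 3.17, 2.44, 2.03 and 2.77 with vehicle and 4.06, 3.01, 1.78 and -1.02 with RSG. No macrophage array thus exceeded 4.06, and on 4 of them, mice 2 and 4 with vehicle and mice 2 and 8 with RSG, the deposited signal was the standard deviation itself, a level of noise. The S/N of PPARg +/-LysCre iDCs was 3.27, 4.78, 7.54 and 3.77 with vehicle and 17.66, 14.16, 13.56 and 8.63 with RSG. These S/N values were apart, whereas the signals overlapped, from 476.46 to 810.33 with vehicle and from 524.5 to 844.66 with RSG. The share of all probes whose S/N was apart in this way was not counted, so this is not read as a trait of Nlrp3. The standard deviation of the probe was 107.53 to 154.35 with vehicle and 47.75 to 61.44 with RSG, while its median over all probes of an array was 144 to 173 and 113 to 169. The S/N of PPARg fl/-LysCre iDCs was 12.31, 6.58, 7.09 and 3.05 with vehicle and 4.16, 9.26, 5.16 and 12.6 with RSG, which overlap.

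The levels below are log2 signals, quantile normalized over the 32 arrays. In PPARg +/-LysCre iDCs, Nlrp3 was at 8.88, 9.58, 9.38 and 9.35 with vehicle in mice 1 to 4 (9.30 ± 0.30, SD, n = 4). The RSG values were 9.90, 9.19, 9.76 and 9.32 (9.54 ± 0.34, SD, n = 4). The ranges overlapped, with mouse 1 the lowest with vehicle and the highest with RSG. In PPARg fl/-LysCre iDCs it was at 9.40, 9.26, 9.62 and 8.49 with vehicle in mice 5 to 8 (9.19 ± 0.49, SD, n = 4). RSG-treated cells had it at 9.55, 9.15, 9.16 and 9.16 (9.26 ± 0.20, SD, n = 4). All 4 iDC groups overlapped, and the lowest of the 16 iDC arrays was mouse 8 with vehicle.

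In macrophages the levels were lower and farther apart. PPARg +/-LysCre macrophages had Nlrp3 at 7.30, 7.03, 7.95 and 5.11 with vehicle (6.85 ± 1.22, SD, n = 4). After RSG the levels were 8.87, 7.15, 9.61 and 7.47 (8.28 ± 1.16, SD, n = 4). Mouse 4 with vehicle was the lowest of all 32 arrays, and mouse 3 with RSG reached the level of iDCs. PPARg fl/-LysCre macrophages had it at 7.71, 7.41, 8.39 and 8.39 with vehicle (7.97 ± 0.50, SD, n = 4). With RSG it was at 8.38, 8.56, 7.84 and 6.56 (7.84 ± 0.90, SD, n = 4). All 4 macrophage groups overlapped with each other, and values from arrays with an S/N of 1 or less are noise.

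**Figure D2:**
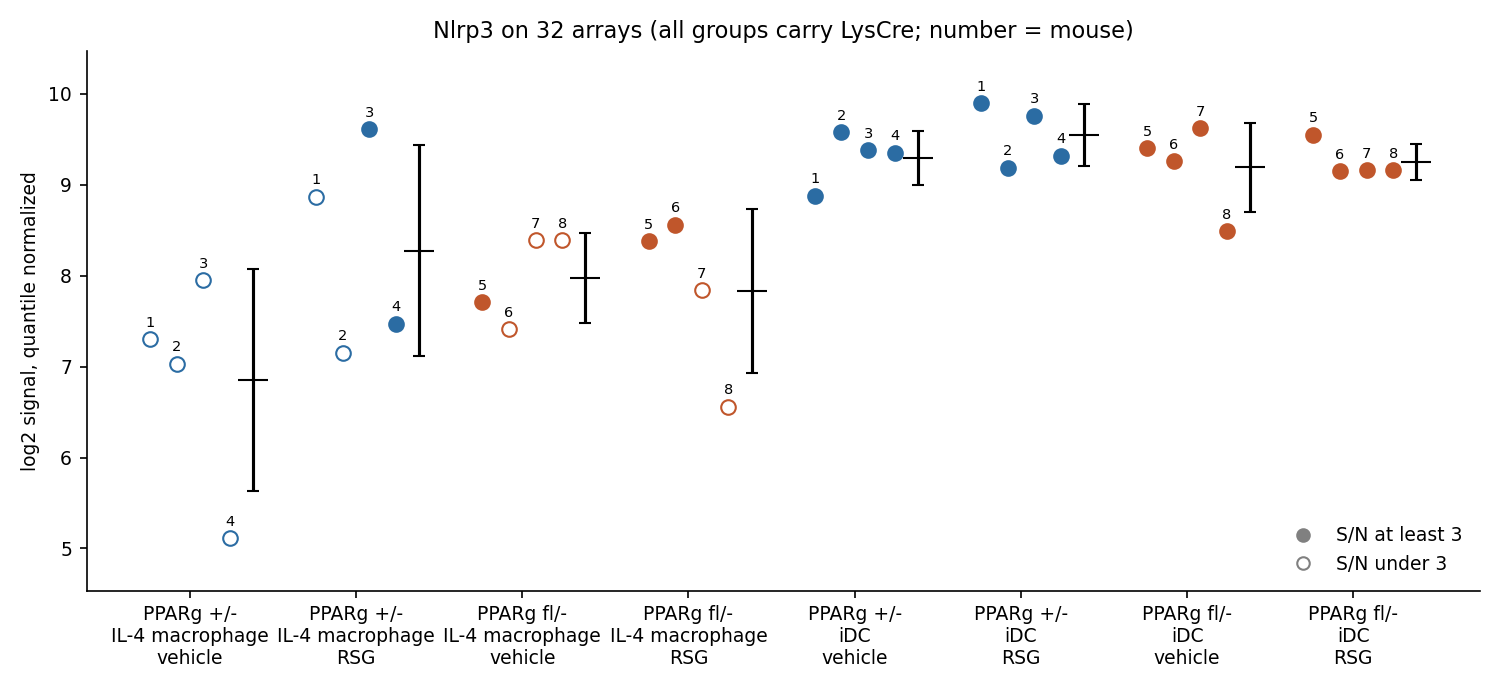
Log2 quantile-normalized Nlrp3 signal on the 32 arrays by group, with the mouse number above each point, filled where the S/N was at least 3, and the mean ± SD of 4 mice as a bar. The 4 iDC groups lie between 8.49 and 9.90, and the macrophage groups spread from 5.11 to 9.61.

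Ordered by their means, the groups ran from PPARg +/-LysCre iDCs with RSG (9.54) through those with vehicle (9.30), PPARg fl/-LysCre iDCs with RSG (9.26) and with vehicle (9.19), to PPARg +/-LysCre macrophages with RSG (8.28), PPARg fl/-LysCre macrophages with vehicle (7.97) and with RSG (7.84), and last PPARg +/-LysCre macrophages with vehicle (6.85). In each of the 7 pairs of neighbors in this order the ranges of the groups overlapped. The largest steps were 0.99 at the lower end, against a pooled SD of 1.07, and 0.91 between the iDC and the macrophage groups, against 0.89. In the other 5 pairs the step was smaller than the pooled SD.

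Nlrp3 was higher in iDCs than in macrophages of the same mouse and treatment in 16 of 16 pairs of arrays. The differences ran from 0.10 to 4.24 on the log2 scale, and the mean over the 16 arrays of each cell type was 9.32 in iDCs and 7.73 in macrophages. Of the 16620 tested probes, 10.2% were higher in iDCs in all 16 pairs and 11.9% were lower in all of them. The arrays of each pair were read on the same scan day. In bulk RNA, a smaller share of cells that express Nlrp3 and less Nlrp3 RNA per cell cannot be told apart.

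In PPARg +/-LysCre cells with vehicle, iDCs exceeded macrophages by 1.58, 2.55, 1.43 and 4.24 in mice 1 to 4. The difference of means was 2.45 ± 0.51 (log2, SE from limma, and 0.45 with the mouse as a block), and without mouse 4 it was 1.85. No macrophage array of this group was well above background, so the size of the difference is uncertain. With macrophage values below the lowest detected signal of their array raised to that signal it was 2.13. Setting each signal with an S/N of 1 or less to that signal gave 2.27, and an offset added before the log2 gave 1.69. With RSG the differences in the same mice were 1.02, 2.04, 0.15 and 1.84, a mean of 1.26 ± 0.51. The 4 iDC arrays lay above the 4 macrophage arrays with vehicle, as did 20.3% of tested probes, but not with RSG, where mouse 3 macrophages were above the iDCs of mice 2 and 4 and 21.1% of tested probes did not overlap in this direction.

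In PPARg fl/-LysCre cells with vehicle, iDCs exceeded macrophages by 1.69, 1.85, 1.23 and 0.10 in mice 5 to 8. The difference of means was 1.22 ± 0.51. With RSG the same mice gave 1.18, 0.58, 1.32 and 2.60, a mean of 1.42 ± 0.51. The 4 iDC arrays lay above the 4 macrophage arrays with vehicle and with RSG, as did 14.5% and 12.4% of tested probes. Mouse 8 had both the smallest difference, with vehicle, and the largest, with RSG.

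**Figure D3:**
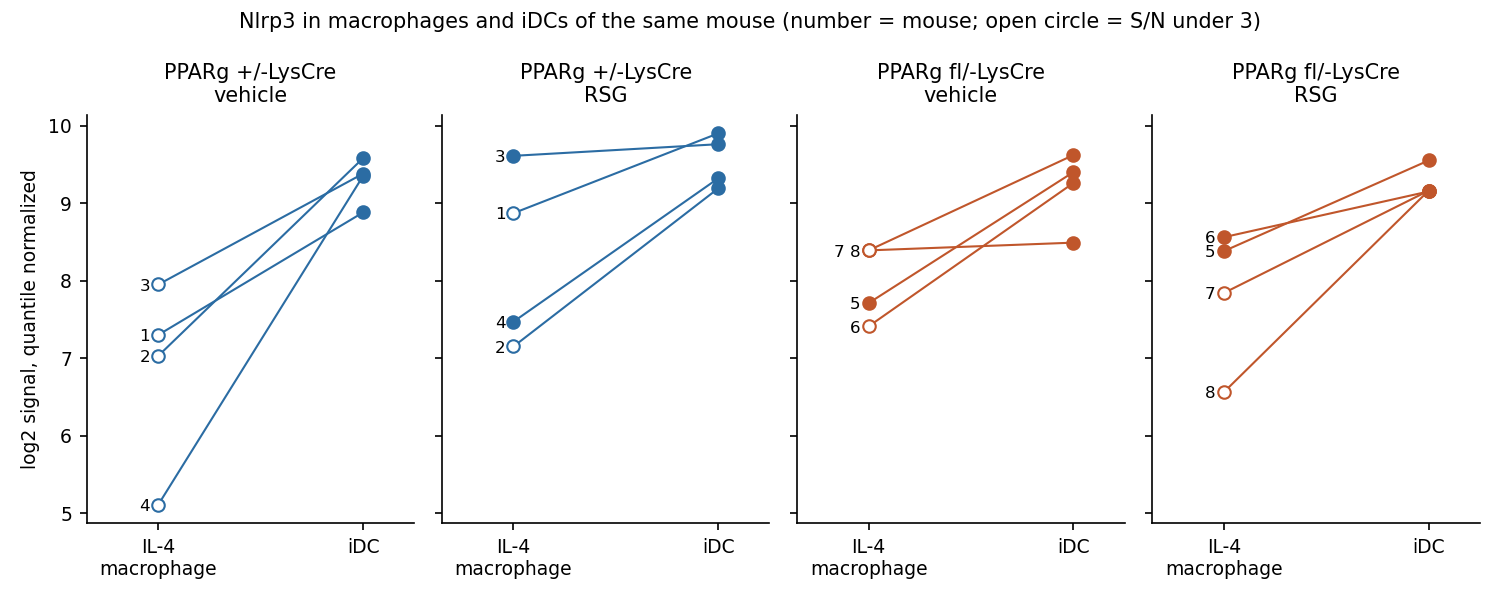
Log2 quantile-normalized Nlrp3 signal in macrophages and iDCs of the same mouse, joined by a line, for each genotype and treatment, with filled points where the S/N was at least 3. All 16 lines go up, from a rise of 0.10 in mouse 8 with vehicle to 4.24 in mouse 4 with vehicle.

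In PPARg +/-LysCre macrophages, RSG minus vehicle was 1.57, 0.12, 1.66 and 2.36 in mice 1 to 4. Both arrays of mouse 2 and the vehicle array of mouse 4 were at the level of noise, so that mouse 2 gives no direction. The mean difference was 1.43 ± 0.65 (log2, SE, and 0.51 with the mouse as a block), and the ranges of vehicle and RSG overlapped. Of the tested probes, 12.5% were higher with RSG in all 4 mice. Since 0 of 4 vehicle arrays and 2 of 4 RSG arrays were detected, the size of the difference is uncertain. Setting signals with an S/N of 1 or less to the lowest detected one made the difference 1.05, and an offset added before the log2 made it 0.91.

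In PPARg fl/-LysCre macrophages the direction differed between mice. RSG changed the signal by 0.67 and 1.16 in mice 5 and 6 and by -0.55 and -1.83 in mice 7 and 8, a mean of -0.14 ± 0.65. Without mouse 8, whose RSG array was at the level of noise, the mean was 0.42, and without mouse 6 it was -0.57. Of the tested probes, 6.3% rose with RSG in all 4 of these mice. Mice 5 and 6 shared one scan day and mice 7 and 8 another, so that the direction also differed between scan days, and the part of the scan day was not tested.

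In iDCs the differences with RSG were smaller than the spread between mice. PPARg +/-LysCre iDCs changed by 1.01, -0.38, 0.38 and -0.04, a mean of 0.24 ± 0.24. PPARg fl/-LysCre iDCs changed by 0.16, -0.11, -0.46 and 0.68, a mean of 0.07 ± 0.24. In both genotypes 2 mice were higher and 2 lower with RSG, while 19.5% of tested probes rose in all 4 PPARg +/-LysCre and 12.7% in all 4 PPARg fl/-LysCre mice.

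The difference between the genotypes' responses to RSG was -1.57 ± 0.92 in macrophages (PPARg fl/-LysCre minus PPARg +/-LysCre) and -0.18 ± 0.34 in iDCs. The value in macrophages rests on arrays near background, and was -1.01 without mouse 8 and -0.98 with the offset. In macrophages the per-mouse changes overlapped, from 0.12 to 2.36 in PPARg +/-LysCre and from -1.83 to 1.16 in PPARg fl/-LysCre mice. Across all tested probes 0.00602% were called for this difference in macrophages and 0.439% in iDCs by limma, with a fold change of 1.5 or more and an adjusted p (Benjamini-Hochberg) below 0.05. Between cell types, the RSG response of iDCs minus that of macrophages was -1.19 ± 0.71 in PPARg +/-LysCre and 0.20 ± 0.71 in PPARg fl/-LysCre mice, and 3.02% and 0.108% of tested probes were called for it. The former was -0.78 without mouse 4 and -0.70 with the offset, and the latter -0.56 without mouse 8 and 0.70 without mouse 6.

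Between genotypes, Nlrp3 in macrophages with vehicle was 7.97 in PPARg fl/-LysCre and 6.85 in PPARg +/-LysCre mice, a difference of 1.13 ± 0.65 (log2, SE). With 1 of 4 PPARg fl/-LysCre and 0 of 4 PPARg +/-LysCre arrays detected, its size is uncertain, and it was 0.55 without mouse 4 and 0.64 with the offset. The ranges overlapped, from 7.41 to 8.39 against 5.11 to 7.95. With RSG the order was the other way, at -0.44 ± 0.65, and the difference was 0.00 without mouse 3 and -0.82 without mouse 2. In iDCs it was -0.11 ± 0.24 with vehicle and -0.28 ± 0.24 with RSG, with overlap in both. Of the tested probes, 2.83% were called between genotypes in iDCs with vehicle and 0.156% in macrophages with vehicle. With RSG the shares were 6.65% in iDCs and 9.33% in macrophages. Each scan day held 2 mice of 1 genotype, so that a value for the genotype within a scan day could not be had.

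**Figure D4:**
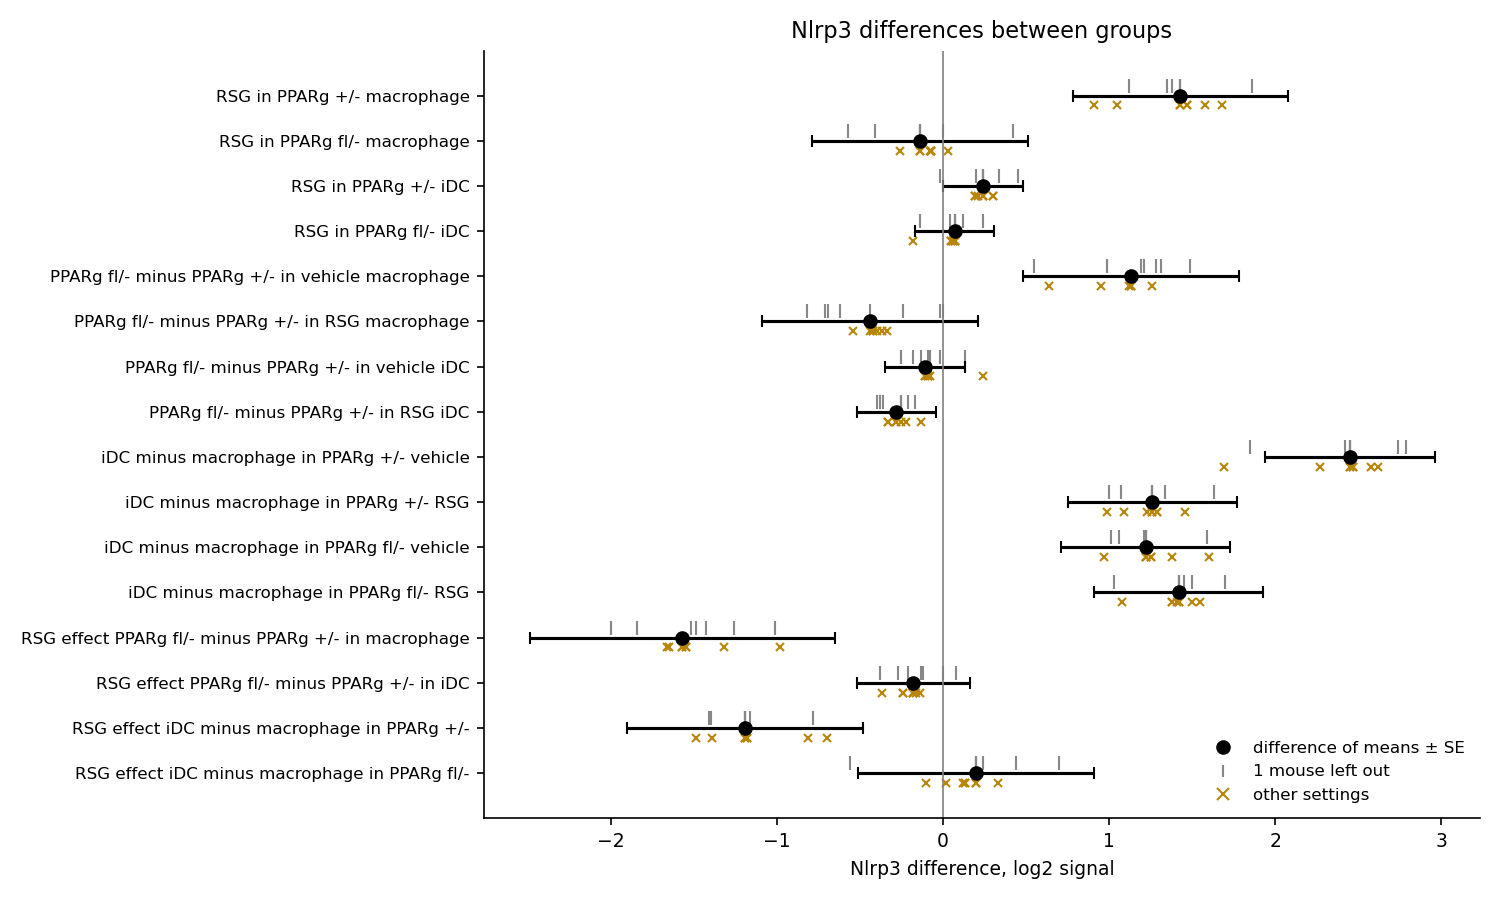
Differences of mean Nlrp3 signal (log2) for the 16 comparisons, with the limma standard error as a bar, ticks for fits without 1 mouse and crosses for other processing settings. The 4 differences between iDCs and macrophages, from 1.22 to 2.45, stayed above 0 in all of them.

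The named genes whose signal followed that of Nlrp3 most over the 32 arrays, by Pearson's r, were Lrrk1, a leucine-rich repeat kinase (0.70), Unkl, a zinc finger protein (0.70), H2-Q8, a class I major histocompatibility gene (0.68), Zkscan17, a zinc finger protein (0.67), and Sgms2, a sphingomyelin synthase (0.66). Named here were the 165 other tested genes with a symbol. The lowest r were those of Hipk2, a nuclear protein kinase (-0.72), Lgals1, which encodes galectin-1 (-0.71), and Llgl1, a cell polarity protein (-0.70). Among unnamed probes mCG8701.2 (0.79) and mCG121783.1 (0.77) were the highest, and mCG68103.2 (-0.78) and mCG126319 (-0.77) the lowest. No tested probe exceeded 0.80 in either direction.

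These correlations are a description, since arrays share mouse, scan day and cell type. Within the 16 macrophage arrays r was -0.02 for Lrrk1, 0.36 for Unkl, 0.15 for H2-Q8, -0.06 for Zkscan17 and 0.02 for Sgms2. Within the 16 iDC arrays it was -0.21, -0.54, -0.11, -0.18 and 0.49 in the same order. For Hipk2, Lgals1 and Llgl1 it was -0.23, -0.11 and -0.42 within macrophages and 0.27, 0.295 and -0.08 within iDCs. Of these named genes, Sgms2 and Llgl1 had the same sign within both cell types as over all arrays. Of the unnamed probes, mCG8701.2 had an r of 0.64 within macrophages and 0.24 within iDCs, and mCG121783.1 had 0.37 and 0.50. For mCG68103.2 it was -0.62 and -0.12, and for mCG126319 it was -0.66 and -0.05.

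**Figure D5:**
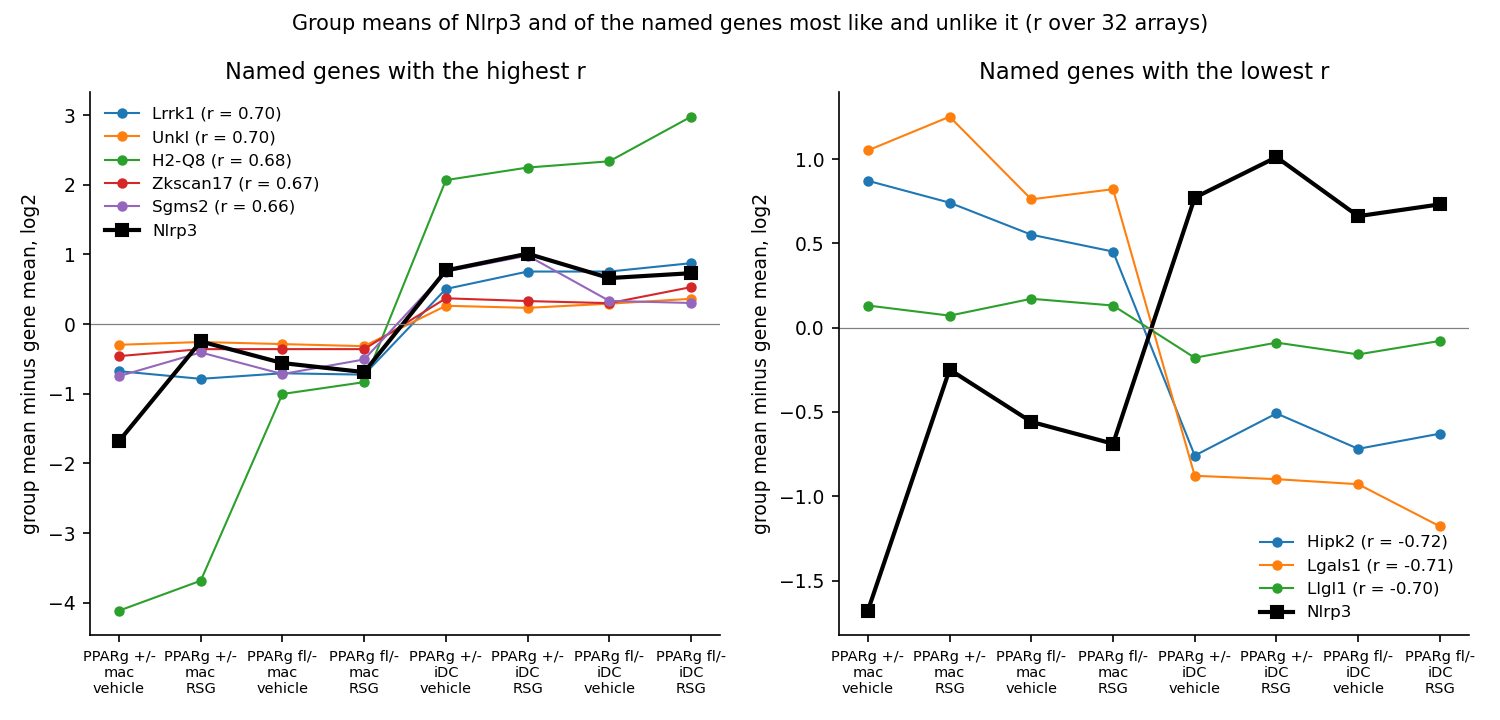
Mean log2 signal of each group minus the mean over groups for Nlrp3 (squares) and for the 5 named genes with the highest and the 3 with the lowest Pearson r over 32 arrays. The 5 genes on the left step up from macrophages to iDCs with Nlrp3, and the 3 on the right step down.

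Zkscan17 lies 2 genes from Nlrp3 in the order of RefSeq genes on chromosome 11. It was higher in iDCs in 16 of 16 pairs, by a mean of 0.77 (13.52 in iDCs and 12.76 in macrophages). Of the other 5 nearest named and tested genes, Mprip, 7 genes away, which encodes a protein that binds myosin phosphatase, was higher in iDCs in 15 of 16 pairs, by 0.33 (r = 0.47). Snap47, a SNARE protein gene 6 genes away, was higher in 4 of 16 pairs (r = -0.23). Flcn, which encodes folliculin, and Cops3, a subunit of the COP9 signalosome, were higher in 7 and 5 pairs, and Nt5m, a mitochondrial nucleotidase, in 7. The neighbors thus did not move together with cell type.

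Of the other genes of the pathway very few had a named probe. Besides Nlrp3, none of the 29 inflammasome sensors had one, and neither did any of the 8 adaptor and caspase genes, the 10 genes of interleukin-1 output, the 37 activators and regulators or the 10 receptors and antagonists of the interleukin-1 family, so these were not analysed here. Of 41 genes of Toll-like receptor and NF-κB priming there was 1, Tlr7, and of 48 inflammatory cytokines and chemokines 1, Tnfsf13. Both were detected on all 32 arrays. Their calls, and those of 3 genes listed as markers of other cells, were made by limma across all tested probes. These 5 genes gave 7 calls among 20 values between the cell types, where 24.6% to 28.9% of tested probes were called. With the mouse as a block they gave 12, where 30.6% and 30.5% were called in PPARg +/-LysCre cells with vehicle and with RSG, and 29.5% and 26.5% in PPARg fl/-LysCre cells.

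Tlr7, an endosomal receptor for single-stranded RNA, went the other way from Nlrp3 in PPARg fl/-LysCre cells. It was at 12.15 ± 0.29 in macrophages and 11.02 ± 0.44 in iDCs with vehicle (SD, n = 4), which fell by 1.13 (adjusted p = 0.000225), where 27.6% of tested probes were called. With RSG it was lower in iDCs by 1.03 (adjusted p = 0.000696, with 24.6% of probes called), a call lost by the methods' t-test (adjusted p = 0.0737). In PPARg +/-LysCre cells it was not called, at 11.67 in macrophages and 11.36 in iDCs with vehicle and 11.40 and 11.56 with RSG. In macrophages with RSG it was higher in PPARg fl/-LysCre cells by 0.70 ± 0.19 (SE; adjusted p = 0.0301, with 9.33% of probes called), a call that was lost without mouse 1, 2, 3, 7 or 8 (adjusted p from 0.0594 to 0.106), with no detection filter (0.0903), with just the compared groups in the fit (0.0935) and by the methods' t-test (0.129).

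Tnfsf13, which encodes the cytokine APRIL, was also lower in iDCs. In PPARg +/-LysCre mice it fell by 0.67 with vehicle (adjusted p = 5.58e-05, with 28.9% of probes called) and by 1.04 with RSG (adjusted p = 8.39e-08, with 28.2% called). With RSG it was at 15.41 ± 0.18 in macrophages and 14.37 ± 0.14 in iDCs (SD, n = 4). For PPARg fl/-LysCre mice the difference was -0.47 with vehicle (adjusted p = 0.00256) and -0.36 with RSG (adjusted p = 0.02), which passed the p threshold but not the fold threshold. In PPARg +/-LysCre macrophages it rose with RSG by 0.62 ± 0.14 (SE; adjusted p = 0.0423), where 1.2% of probes were called, but this call was lost with median scaling or the deposited ratios (0.48, adjusted p = 0.185) and on leaving out each mouse but mouse 5, with adjusted p up to 0.254. It was also lost with the scan day as a block (0.0562), with no detection filter (0.172), with just the compared groups in the fit (0.0719) and by the methods' t-test (0.0968). Whether the difference between the cell types differs between genotypes was not tested for Tlr7 or Tnfsf13.

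Of the genes listed as markers of other cells, 3 had a named probe. Ear1, an eosinophil-associated ribonuclease listed with the granulocyte markers, was detected on all 4 arrays of every group. In bulk RNA it cannot be told whether the cultured cells themselves or others held it. Ear1 was lower in iDCs of PPARg +/-LysCre mice. It fell by 2.56 from 17.54 with vehicle (adjusted p = 2.74e-05, with 28.9% of probes called). With RSG it fell from 19.29 to 17.78 (adjusted p = 0.00699, with 28.2% called). The difference in PPARg fl/-LysCre mice was -0.55 with vehicle (adjusted p = 0.344) and 0.98 with RSG (adjusted p = 0.0829, and 0.029 with the mouse as a block). Both depend on mouse 5, whose macrophages had Ear1 at 17.20 with vehicle and 17.19 with RSG. Macrophages of mice 6 to 8 had it at 14.59 to 15.24 with vehicle and 15.08 to 16.58 with RSG. In PPARg +/-LysCre macrophages RSG minus vehicle was 1.75 (adjusted p = 0.136, and 0.00532 with the mouse as a block). In iDCs it rose with RSG by 2.81 in PPARg +/-LysCre (adjusted p = 8.53e-05, with 6.01% of probes called) and by 2.29 in PPARg fl/-LysCre mice (adjusted p = 0.0043, with 0.692% called). The second of these calls was lost without mouse 6 (adjusted p = 0.0612), with just the compared groups in the fit (0.053) and by the methods' t-test (0.171). In macrophages with RSG it was lower in PPARg fl/-LysCre cells, at 16.17 against 19.29 (adjusted p = 0.00346, with 9.33% of probes called). With vehicle the genotype difference was -2.12 (adjusted p = 0.0671), which was not called, where 0.156% of probes were. The part of Ear1 in the Nlrp3 levels was not tested.

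Ahsp, an erythroid marker that encodes a hemoglobin chaperone, was dim. It was detected on all 4 arrays of PPARg +/-LysCre iDCs with RSG and on at most 2 of any other group. There it was higher than in macrophages by 2.77 (adjusted p = 0.000629, with 28.2% of probes called), and by 2.33 to 3.08 over the alternatives. No macrophage array detected it, so the size is uncertain, although raising dim values to the lowest detected signal of their array left it at 2.77. In PPARg fl/-LysCre iDCs with RSG, where no array detected it, it differed by -3.30, a gap of 3.19 with dim values raised (adjusted p = 0.0157, with 6.65% of probes called), a call lost without mouse 2 or 3 (adjusted p = 0.0584 and 0.0521) and by the methods' t-test (0.0725). In iDCs of PPARg +/-LysCre mice Ahsp rose with RSG by 2.99 (adjusted p = 0.0188, with 6.01% of probes called). This call was lost on leaving out each of mice 1 to 4 (adjusted p from 0.0531 to 0.146). The size of this rise is uncertain, since it was detected on 1 of the 4 vehicle arrays. Hba-a1, an alpha globin gene, was detected on 0 of 8 macrophage arrays of PPARg +/-LysCre and on 6 of 8 of PPARg fl/-LysCre mice. In the latter it was bright in mice 6 to 8, at 12.15 to 12.67, and dim in mouse 5, at 8.59 with vehicle and 8.67 with RSG. With RSG it was higher in the latter by 3.43 (adjusted p = 0.0252, with 9.33% of probes called), with 3.07 to 4.34 over the alternatives. Since no PPARg +/-LysCre macrophage array detected it, the size of this difference is uncertain. This call was lost on leaving out each mouse but mouse 5 (adjusted p from 0.0585 to 0.0876), with no detection filter (0.0611), with just the compared groups in the fit (0.0555) and by the methods' t-test (0.102). Between iDCs and macrophages Hba-a1 differed by 1.85 with vehicle and 1.23 with RSG in PPARg +/-LysCre mice, sizes that are likewise uncertain. In PPARg fl/-LysCre mice the differences were -1.57 and -1.53. All 4 had adjusted p from 0.0903 to 0.279 and were not called, but with the mouse as a block they were (adjusted p from 0.000482 to 0.0131). Ahsp was called in 1 of these 4 comparisons with and without the block, and the part of both markers in the Nlrp3 levels was not tested. In the comparisons within iDCs for which Ahsp was called, Hba-a1 went the other way and was not called. For Hba-a1, RSG minus vehicle in PPARg +/-LysCre iDCs was -0.83 (adjusted p = 0.612). The genotype difference of Hba-a1 in iDCs with RSG was 0.68 (adjusted p = 0.606), so the erythroid markers did not move together there.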

How the data were processed

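Nlrp3 and the gene lists were chosen with earlier results of these data known. For each array the authors deposited the intensity of every probe after background correction, with a standard deviation, an S/N, which is a score of the authors' scanner output, an assay-normalized signal and quality flags. Where S/N was 1 or less, the deposited signal was its own standard deviation. The deposited series table holds ratios of these signals to a number for each array and to the probe's median over arrays. The study's methods state a scaling to the median of each array for its Affymetrix arrays, not for these. The array software and genome build are not given in the sources used here. RNA was labeled by the submitters with digoxigenin. Signals were taken to log2 and quantile normalized over 32 arrays, and control spots were left out.

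The 16620 probes that reached an S/N of 3 on 3 or 4 arrays in any group were tested, of which 166 were named genes. Names came from a RefSeq table of assembly GRCm38.p6 (317 probes) and from the supplementary tables (8, among them Hipk2, Sgms2 and Ahsp). Detected probes per array numbered 13595 to 16683. Group means were fitted with limma 3.58.1 (R 4.3.3), on the 16 arrays of a cell type or, between cell types, on 32. Unless stated, the SEs of Nlrp3 differences are from these fits, without the mouse as a block. Each fit shares 1 spread over its groups, while the SD of Nlrp3 within a group ran from 0.20 to 1.22. A call needed a fold change of 1.5 or more and an adjusted p (Benjamini-Hochberg) below 0.05. The fit was tested on simulated data. Tables and plots were made with Python 3.11.15, pandas 2.3.3, numpy 2.4.6 and matplotlib 3.10.9. The number of arrays limits the precision.

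Arrays with the same number came from the same mouse. After group means were taken off, their correlation had a median of 0.284 for arrays of one cell type and 0.155 for iDC with macrophage arrays, against -0.0204 between mice. Genes named were Nlrp3, the genes of the inflammasome lists with a named probe, called genes of the other lists, and the 5 named genes with the highest and 3 with the lowest r, with at most 2 unnamed probes at each end. The 6 neighboring genes were added after the data were seen. Alternatives were median scaling, the deposited ratios, the assay-normalized signal, no normalization between arrays (added after seeing the data), a floor for dim signals, an offset, other detection filters and fold thresholds, the t-test of the methods (the methods' t-test), fits on fewer or more arrays, a block for the mouse or the scan day, and fits without each mouse in turn. No Nlrp3 value carried a high quality flag, so leaving such values out changed nothing.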

Additional observations from a re-analysis of the deposited data

Results flagged for a closer look

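In 5 of 48 groups examined, for Nlrp3 and 5 other genes, 1 array stood apart from the other 3, where chance alone gives about 1 in 20 such groups. On the log2 scale, Nlrp3 in PPARg fl/-LysCre iDCs with RSG was at 9.55 in mouse 5 and at 9.15 to 9.16 in the others, a gap of 0.39. Hba-a1 in mouse 5 was at 8.59 in macrophages with vehicle, 8.67 in macrophages with RSG and 7.23 in iDCs with RSG, below the other 3 mice of each group. Ear1 in PPARg +/-LysCre macrophages with RSG was at 19.53 in mouse 3 and at 19.23 or lower in the others.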

How the results depend on the processing

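The 16 Nlrp3 differences moved by less than the spread between mice under each alternative, and those between iDCs and macrophages kept their direction in all of them, between 0.97 and 2.79. The RSG difference in PPARg +/-LysCre macrophages ran from 0.91 to 1.86. Differences near 0 changed sign: RSG in PPARg +/-LysCre iDCs without mouse 1 (-0.02), RSG in PPARg fl/-LysCre iDCs without mouse 8 (-0.14) and with no normalization between arrays (-0.18), RSG in PPARg fl/-LysCre macrophages without mouse 8 (0.42) and with the assay-normalized signal (0.03), the genotype difference in iDCs with vehicle without mouse 8 (0.13) and with no normalization (0.24), the genotypes' difference in RSG effect in iDCs without mouse 1 (0.08), and the cell types' difference in RSG effect in PPARg fl/-LysCre mice without mouse 8 (-0.56) and with no normalization (-0.10). The level of PPARg fl/-LysCre iDCs with RSG, set against the mean over arrays, moved from 0.73 to 0.53 with an offset. Over the 8 group means the median r of the genes most and least like Nlrp3 was 0.89 and -0.88.

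Among the 5 other list genes, calls numbered 4 for RSG, 7 for cell type, 4 for genotype and 0 for differences in the RSG effect by limma, for which 5 values had an unadjusted p under 0.05. Over all tested probes 0% to 6.01% were called for RSG, 24.6% to 28.9% for cell type, 0.156% to 9.33% for genotype and 0.00602% to 3.02% for those differences. With the mouse as a replicate block there were 12 calls for cell type, 5 for RSG and 0 for the differences, and genotype has no fit with this block. Genotype calls numbered 2 with no detection filter, 2 when the fit held just the compared groups and 1 by the methods' t-test with Benjamini-Hochberg adjustment. They numbered 6 with all 32 arrays in the fit, 6 by that t-test without adjustment, 5 with no fold threshold and 3 with a 2-fold threshold. Differences in the RSG effect had 1 call when the fit held just the compared groups and 5 by the methods' t-test without adjustment. Leaving out 1 mouse gave 2 to 5 calls for RSG, 7 to 12 for cell type, 1 to 8 for genotype and 0 to 1 for differences, and the highest counts for RSG, cell type and genotype came without mouse 5. The shares in this paragraph are those of the main fits, so the counts under other settings cannot be set against them. Nlrp3 differences in macrophages rest on signals near background. For these changes the cause was not tested.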
